A study of Mus musculus with 6 samples.

Results

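The NMDA receptor subunits are encoded in the mouse by 7 genes, *Grin1*, *Grin2a*, *Grin2b*, *Grin2c*, *Grin2d*, *Grin3a* and *Grin3b*, and their transcripts were followed in whole adult brain with and without RNA editing by ADAR1. The genes were taken by symbol from a count table of 37310 genes, in which each matched a single row. The RNA-seq libraries came from whole brains of male C57BL/6 mice aged 12 weeks, 3 per genotype, described as separate biological replicates. *Adar1* E861A/E861A Ifih1-/- animals carry a germline point mutation in both copies of *Adar1* that leaves the ADAR1 protein in place but without editing activity, and they are called *Adar1* E861A here. The controls were *Adar1*+/+ Ifih1-/- animals, called *Adar1*+/+ here. Both groups therefore lacked MDA5, the double-stranded RNA sensor encoded by *Ifih1*, and no library came from an animal with MDA5. The libraries allow gene expression in adult brain to be compared between mice with and without active ADAR1.

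NMDA receptors are glutamate-gated cation channels of 4 subunits that open when glutamate and a co-agonist, glycine or D-serine, are both bound and when depolarization has lifted a magnesium block from the pore. Every receptor contains GluN1, from *Grin1*, together with GluN2 subunits, which bind glutamate and set the kinetics, and in some neurons GluN3 subunits, which bind glycine. Calcium entry through these channels drives synaptic plasticity. GluN2B and GluN2D dominate early in life, GluN2A and GluN2C rise after birth, GluN2C is best known from cerebellar granule neurons, GluN3A peaks in the young brain and GluN3B is known from motor neurons.

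The pore of these channels is lined by a re-entrant loop whose tip carries a single residue, the N site, that governs calcium permeability and magnesium block. At the matching position of the AMPA receptor subunit GluA2 lies the Q/R site, the best known recoding site of RNA editing in brain and a substrate of ADAR2, the other active editing enzyme. The coding sequence around this position is shown for 6 of the subunits and for *Gria2* because it is where the family differs from GluA2 at a site of editing. Sequences are 5′ to 3′ on the coding strand of the NCBIM37 (mm9) genome with GENCODE vM1 exons, each within 1 exon of the gene's longest coding transcript, and capitals mark the codon of the pore-tip residue.
*Grin1*: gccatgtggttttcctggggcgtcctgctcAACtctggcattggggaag
*Grin2a*: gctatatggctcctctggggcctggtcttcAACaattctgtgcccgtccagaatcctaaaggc
*Grin2c*: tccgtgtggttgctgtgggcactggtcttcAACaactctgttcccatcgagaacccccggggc
*Grin2d*: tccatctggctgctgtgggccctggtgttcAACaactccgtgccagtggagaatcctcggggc
*Grin3a*: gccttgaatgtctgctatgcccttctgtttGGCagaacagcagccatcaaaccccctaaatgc
*Grin3b*: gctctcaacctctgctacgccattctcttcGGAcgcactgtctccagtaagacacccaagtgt
*Gria2*: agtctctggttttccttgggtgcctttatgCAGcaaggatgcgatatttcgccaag

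*Grin1*, *Grin2a*, *Grin2c* and *Grin2d* have AAC, asparagine, at this position, whereas *Grin3a* and *Grin3b* have the glycine codons GGC and GGA. *Gria2* has CAG in the genome, glutamine, which editing of the A turns into a codon read as arginine. The stretches lie at chr2:25152890-25152938 in exon 14 of *Grin1*, chr16:9653624-9653686 in exon 10 of *Grin2a*, chr11:115115147-115115209 in exon 9 of *Grin2c*, chr7:53109733-53109795 in exon 8 of *Grin2d*, chr4:49783426-49783488 in exon 3 of *Grin3a*, chr10:79437261-79437323 in exon 3 of *Grin3b* and chr3:80510810-80510865 in exon 11 of *Gria2*. All are on the minus strand except that of *Grin3b*. Gene counts hold no information on the base read at any position, so editing itself was not measured here. Translated from the longest coding sequence, the *Grin2* proteins were 47.9% to 57.8% identical to each other, GluN3A and GluN3B were 56.3% identical, and GluN1 was 30.4% to 32.1% identical to the other 6. For each of the 7 genes the whole transcript with the longest coding sequence was also compared, on either strand. The longest run of bases shared by any 2 of these transcripts was 34 bases, between *Grin2b* and *Grin2c*, which is shorter than the 75-base reads. Other annotated transcripts were not compared.

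Libraries held 26853488 to 38076753 counts, the 3 *Adar1* E861A libraries averaging fewer than the controls, and the ranges overlapped. Mitochondrial genes took 11.02% to 13.79% of counts. *Adar1* E861A replicate 3 had both the fewest counts and the highest mitochondrial share. Markers of the labelled tissue were present in every library, with 10 pan-neuronal markers summing to 6327 to 6544 CPM (each gene's count scaled to a common library total). In *Adar1* E861A replicate 1 the 6 matched pituitary markers summed to 440.8 CPM, against 1.30 to 3.34 CPM in the other 5 libraries, so subunit fold changes and ratios are also given without that library. Summed choroid plexus markers spanned 225 to 336 CPM in *Adar1* E861A and 394 to 414 CPM in controls, and summed endothelial markers 106 to 134 against 133 to 158 CPM; their part in any result below was not tested. In whole tissue, fewer cells of a type and less RNA per cell cannot be told apart.

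For none of the 7 subunit transcripts did the genotypes differ by more than the spread between libraries. In edgeR's quasi-likelihood test 6 of the 7 passed the filter of at least 2 CPM in 3 of 3 libraries of either genotype, *Grin3b* alone falling short, and 0 of these 6 were called at an adjusted p under 0.05. Across all 13649 tested genes 69 were called, 0.506%, and 0 of 6 is near that background. At an unadjusted p under 0.05 the count was 0 of 6 members, against 9.01% of all tested genes, and 0 members were called by DESeq2, limma-voom or edgeR's likelihood ratio test. The CPM ranges of the 2 genotypes overlapped for all 7 members, and they did not overlap for 13.8% of tested genes. With so few members, neither this count nor that of unadjusted p-values sets the subunits apart from other genes. Of the 6 tested members, *Grin2a*, *Grin2b*, *Grin2c* and *Grin3a* had fold changes above 0 and *Grin1* and *Grin2d* below 0, all between -0.060 and 0.056 on the log2 scale. The median absolute log2 fold change over all tested genes was 0.059, and 49.5% of them were higher in *Adar1* E861A.

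**Figure D1:**
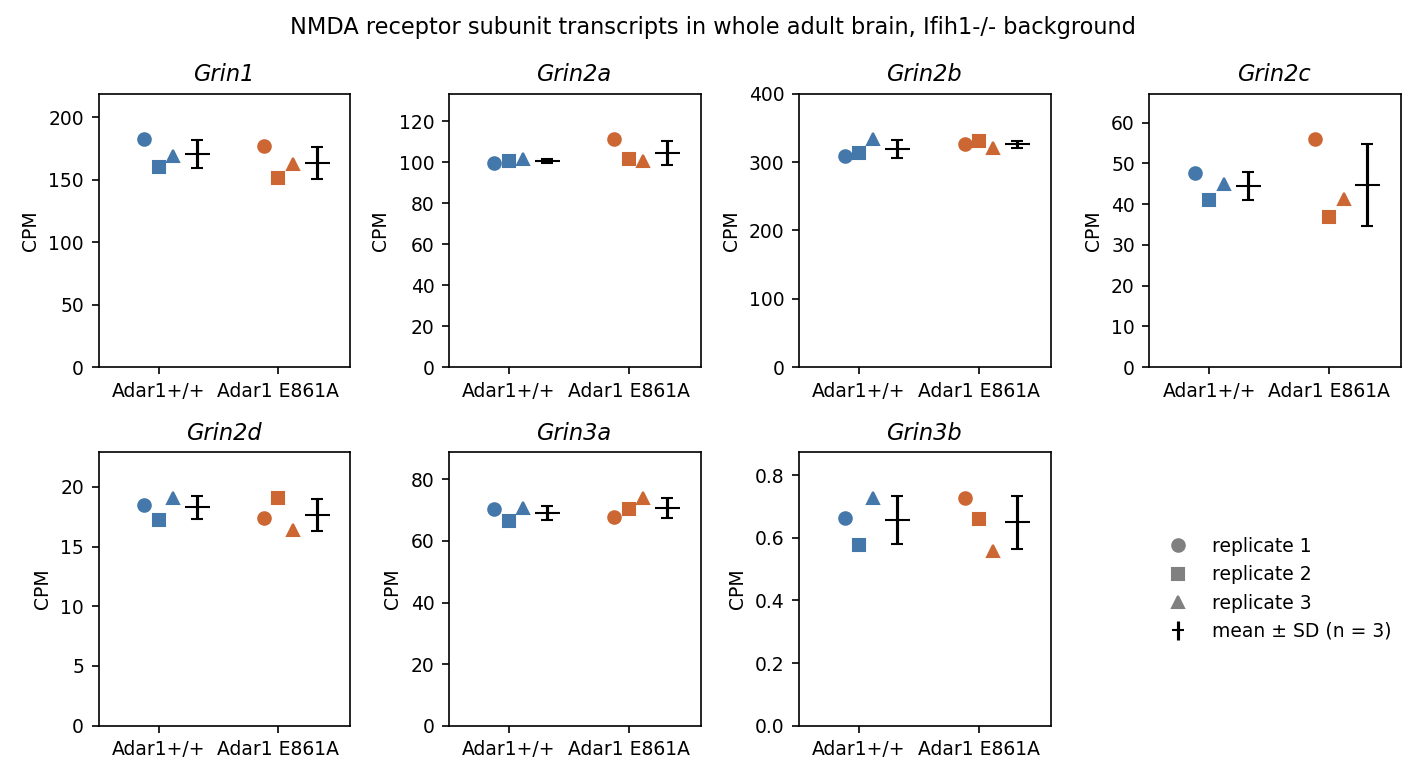
Level of each NMDA receptor subunit transcript in CPM, from 0, in the 3 *Adar1*+/+ (blue) and 3 *Adar1* E861A (orange) libraries, with replicate numbers as symbols and black bars for mean ± SD (n = 3). The genotypes overlap for all 7 genes, and the *Grin2c* value of *Adar1* E861A replicate 1, 55.97 CPM, is above the other 5.

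*Grin1* (ENSMUSG00000026959; chr2:25146701-25174707, minus strand) encodes the obligatory GluN1 subunit, which binds the co-agonist. It was at 177.1, 151.5 and 162.8 CPM in *Adar1* E861A replicates 1 to 3 and at 182.6, 160.5 and 169.4 CPM in the controls. Replicate 1 was the highest and replicate 2 the lowest in each genotype, and *Adar1* E861A was the lower of each same-numbered pair. Each other member was higher in *Adar1* E861A in 1 or 2 of the 3 pairs. These pairs are by replicate number only, as the source of any pairing is not stated. The means were 164 ± 12.8 CPM and 171 ± 11.2 CPM (SD, n = 3). The log2 fold change was -0.060 ± 0.055 (SE), with a 95% interval from -0.18 to 0.057, equal to 0.884 to 1.04-fold (adjusted p = 0.78). Blocking on the replicate number lowered the standard error to 0.032 and gave an adjusted p of 0.409, which did not pass the threshold, while it called 1.16% of all tested genes. An antisense transcript, *E130003G02Rik*, shares 1307 exon bases with *Grin1*. It had 109 to 216 counts per library against 4371 to 6607 for *Grin1*. The kit keeps strand, but the strand setting of the counting was not stated, so the separation of the pair is uncertain.

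*Grin2a* (ENSMUSG00000059003; chr16:9577803-9995014, minus strand), for the GluN2A subunit of mature synapses, was at 111.3, 101.4 and 100.7 CPM in *Adar1* E861A and at 99.6, 100.4 and 101.6 CPM in controls. Replicate 1 of *Adar1* E861A was above the other 5 libraries, which lay between 99.6 and 101.6 CPM. The means were 105 ± 5.92 and 101 ± 1.02 CPM (SD, n = 3), which is 0.056 ± 0.046 as a log2 fold change (95% interval -0.044 to 0.16, adjusted p = 0.756). Without *Adar1* E861A replicate 1 the log2 fold change was 0.021.

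*Grin2b* (ENSMUSG00000030209; chr6:135679844-136123529, minus strand) encodes GluN2B, the GluN2 subunit that anchors CaMKII at the synapse. It had the highest count of the family, with 326.4, 331.4 and 321.3 CPM in *Adar1* E861A and 308.5, 313.5 and 333.6 CPM in controls. The highest value, that of control replicate 3, exceeded all *Adar1* E861A libraries. Its 6 values were the least variable of the family, with a coefficient of variation of 3.09%. The log2 fold change was 0.036 ± 0.046 (95% interval -0.063 to 0.14, adjusted p = 0.848), equal to 0.957 to 1.10-fold.

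*Grin2c* (ENSMUSG00000020734; chr11:115110483-115128557, minus strand), for the GluN2C subunit, was at 55.97, 36.82 and 41.3 CPM in *Adar1* E861A and at 47.68, 40.94 and 44.96 CPM in controls. Both the highest and the lowest value came from *Adar1* E861A, and the coefficient of variation over 6 libraries was 15%, the largest of the 7. The means were almost equal, 44.7 ± 10.02 and 44.5 ± 3.39 CPM (SD, n = 3). The log2 fold change was 0.0015 ± 0.11, with a 95% interval from -0.23 to 0.23 (adjusted p = 0.998), or 0.856 to 1.17-fold. Without *Adar1* E861A replicate 1, the library with pituitary markers, it was -0.18 ± 0.070 with an unadjusted p of 0.0245 from edgeR and an adjusted p of 0.56.

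The 9 markers of cerebellar granule neurons, among them *Gabra6* and *Cbln3*, were examined beside *Grin2c*. Their summed level was 738.9, 555.1 and 608.2 CPM in *Adar1* E861A and 760.4, 646.6 and 665.6 CPM in controls. In both genotypes replicate 1 was the highest, replicate 2 the lowest and replicate 3 between them. *Grin2c* had the same order, but so did *Grin1*, so the order is not particular to *Grin2c*. Of the 9 markers 7 were lower in *Adar1* E861A, 0 were called, 4 had an unadjusted p under 0.05, and their median log2 fold change was -0.13. None of the 9 was at 0 in every library. The part of granule neuron content in the *Grin2c* values was not tested.

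**Figure D2:**
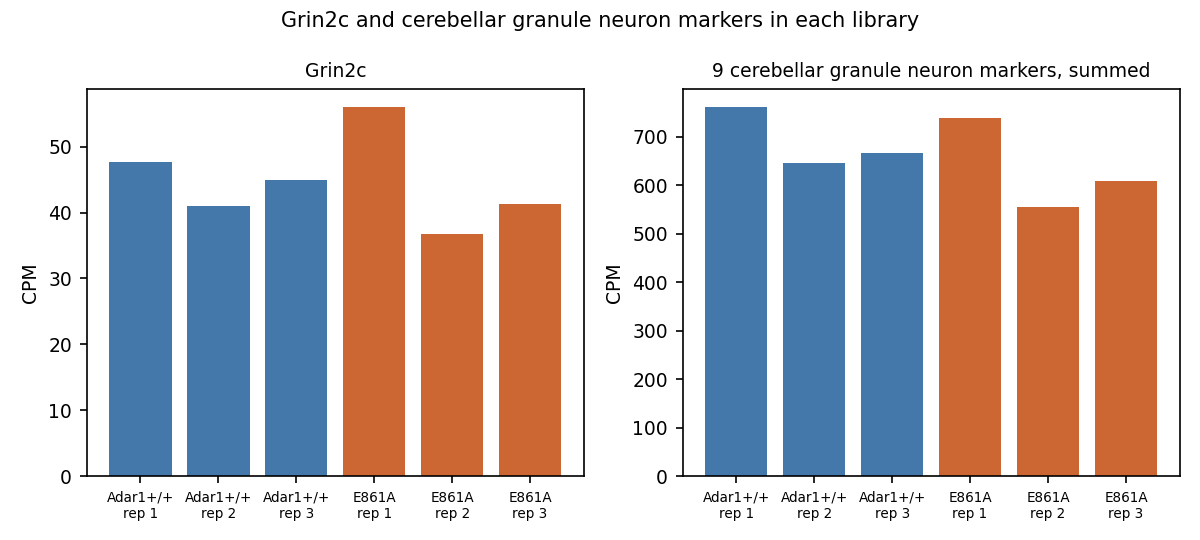
Level of *Grin2c* (left) and summed level of 9 cerebellar granule neuron markers (right), both in CPM from 0, in each of 3 *Adar1*+/+ (blue) and 3 *Adar1* E861A (orange) libraries; each bar is 1 library. Replicate 1 is highest and replicate 2 lowest within each genotype in both panels, an order that *Grin1* (not drawn) shared.

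*Grin2d* (ENSMUSG00000002771; chr7:53087253-53126298, minus strand), for GluN2D, a subunit of brainstem, diencephalon and interneurons, was at 17.39, 19.07 and 16.39 CPM in *Adar1* E861A and at 18.49, 17.25 and 19.1 CPM in controls. The values of the genotypes interleaved. The log2 fold change was -0.047 ± 0.073 (95% interval -0.20 to 0.11, adjusted p = 0.879). The 9 inhibitory neuron markers summed to 944 to 982 CPM in *Adar1* E861A and 967 to 1059 CPM in controls, and 0 of them were called. Of these markers 8 were lower and 1, *Vip* (named after its value was seen), was higher in *Adar1* E861A, and 4 had an unadjusted p under 0.05 in edgeR, *Vip* among them. Their part in the *Grin2d* values was not tested.

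*Grin3a* (ENSMUSG00000039579; chr4:49674483-49858616, minus strand), for the glycine-binding GluN3A, was at 67.75, 70.22 and 74.07 CPM in *Adar1* E861A and at 70.32, 66.6 and 70.58 CPM in controls. Its lowest value came from a control and its highest from *Adar1* E861A, and the rest interleaved. The log2 fold change was 0.033 ± 0.052 (95% interval -0.080 to 0.15, adjusted p = 0.884).

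*Grin3b* (ENSMUSG00000035745; chr10:79433460-79439935, plus strand), for GluN3B, was close to the limit of detection. It received 21, 24 and 15 counts in *Adar1* E861A and 24, 22 and 26 counts in controls, or 0.559 to 0.728 CPM. The exact 95% Poisson interval of the lowest library ran from 8.40 to 24.7 counts and that of the highest from 17.0 to 38.1 counts, for counting error only. They overlap, but they are on raw counts not scaled for depth, and the overlap is no test of a difference. When every gene with any count was fitted, the log2 fold change was -0.017 ± 0.29 (95% interval -0.58 to 0.55, adjusted p = 0.99), and under edgeR's filterByExpr it was -0.013 ± 0.26 (adjusted p = 0.997). The first interval equals 0.667 to 1.46-fold, so that smaller differences could not be resolved at this depth. *ORF61*, on the opposite strand, shares 1059 exon bases with *Grin3b* and had 885 to 1381 counts, and whether any of its reads were counted to *Grin3b* was not tested. The 8 markers of motor and brainstem neurons summed to 35.7 to 39.1 CPM. Of the 6 tested, 6 were lower in *Adar1* E861A and 0 were called, with a median log2 fold change of -0.081. Their part in the *Grin3b* values was not tested.

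An exact two-sided permutation test of the CPM values, which uses no model, gave p = 0.5 for *Grin1*, 0.3 for *Grin2a*, 0.4 for *Grin2b*, 0.9 for *Grin2c*, 0.6 for *Grin2d*, 0.6 for *Grin3a* and 0.7 for *Grin3b*. With 3 libraries against 3 this test cannot give a p below 0.1. Without *Adar1* E861A replicate 1, 0 members were called, and the log2 fold change was -0.11 for *Grin1*, 0.049 for *Grin2b*, -0.024 for *Grin2d* and 0.074 for *Grin3a*.

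**Figure D3:**
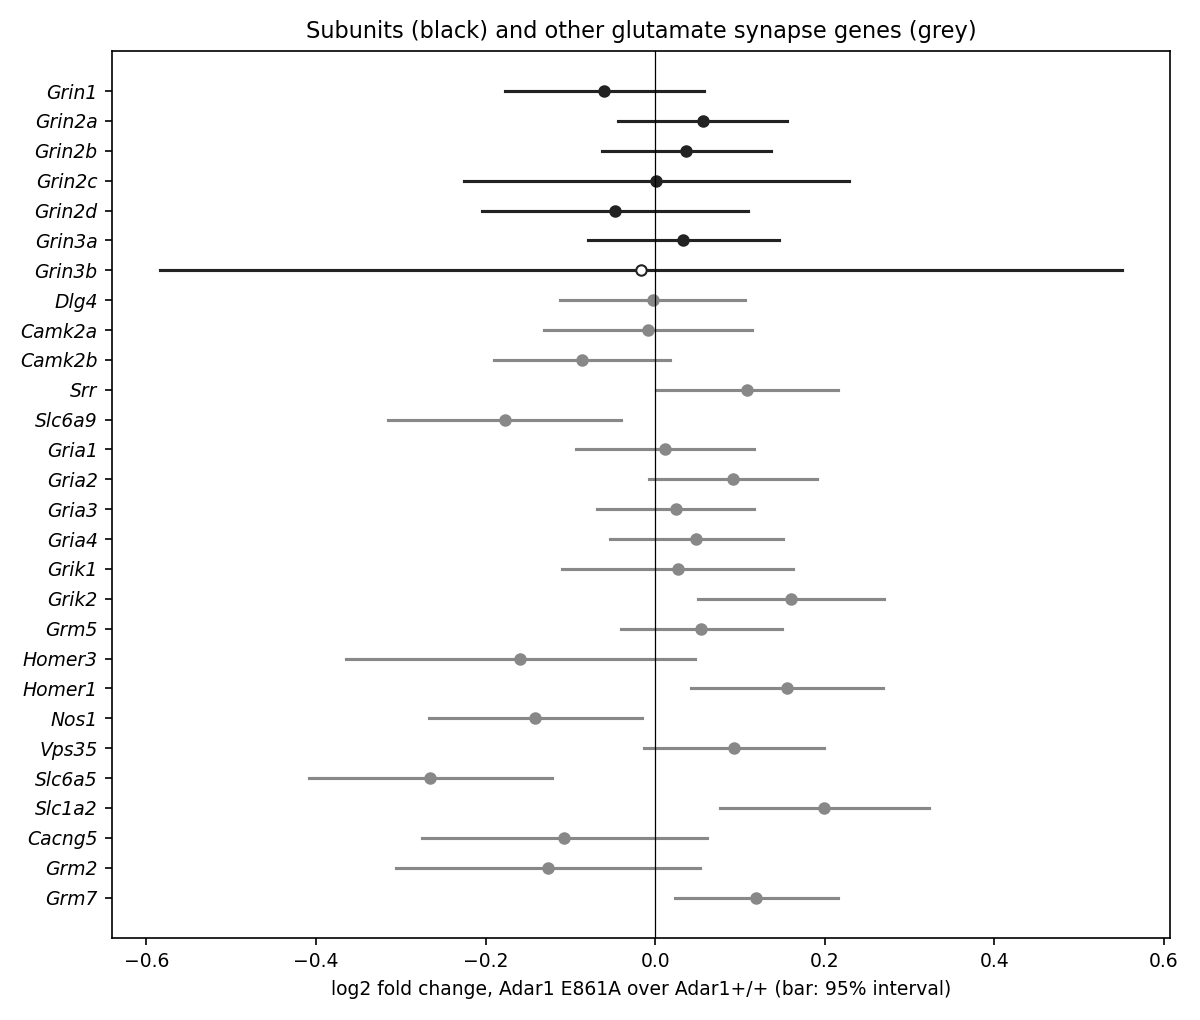
Log2 fold change, *Adar1* E861A over *Adar1*+/+, with 95% interval, for the 7 subunits (black) and 21 further genes of the glutamate synapse (grey); *Grin3b*, which failed the filter, is an open circle from the fit of all genes. The intervals of all 7 subunits include 0, and that of *Grin3b*, from -0.58 to 0.55, is the widest.

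To compare levels between subunits, CPM was divided by gene length in kilobases, the length being the union of a gene's exons in GENCODE vM1. On this scale *Grin2b* was the highest, with 39.5 CPM per kilobase (mean of 6 libraries). *Grin2a* followed with 19.4 and *Grin1* with 17.3 CPM per kilobase, and these neighbours overlapped, *Grin2a* being the higher in 5 of 6 libraries. *Grin2c* was at 8.86, *Grin3a* at 4.43, *Grin2d* at 3.06 and *Grin3b* at 0.198 CPM per kilobase, without overlap between neighbours. Among 13649 tested genes *Grin2b* stood at percentile 93.2 of level per length, *Grin2a* at 82.5, *Grin1* at 80.0, *Grin2c* at 61.0, *Grin3a* at 37.8 and *Grin2d* at 27.2.

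The place of *Grin1* and *Grin3a* in this order depended on the length used. The union of exons of *Grin1* is 9700 bases over 14 annotated transcripts, but its longest transcript is 4276 bases. For *Grin3a* these are 15779 and 7491 bases. With the longest transcript as length *Grin1* moved to 39.1 CPM per kilobase, second to *Grin2b* at 43.1, and their ranges overlapped, with *Grin2b* the higher in 5 of 6 libraries. *Grin3a*, at 9.34, and *Grin2c*, at 9.11 CPM per kilobase, then overlapped too. With coding length the order was *Grin2b*, *Grin1*, *Grin2a*, *Grin3a*, *Grin2c*, *Grin2d* and *Grin3b*, at 72.5, 56.9, 23.3, 20.5, 11.6, 4.44 and 0.217 CPM per kilobase, with no overlap between neighbours. *Grin2b* in the first place, *Grin2d* in the sixth and *Grin3b* in the last held under all 3 lengths.

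**Figure D4:**
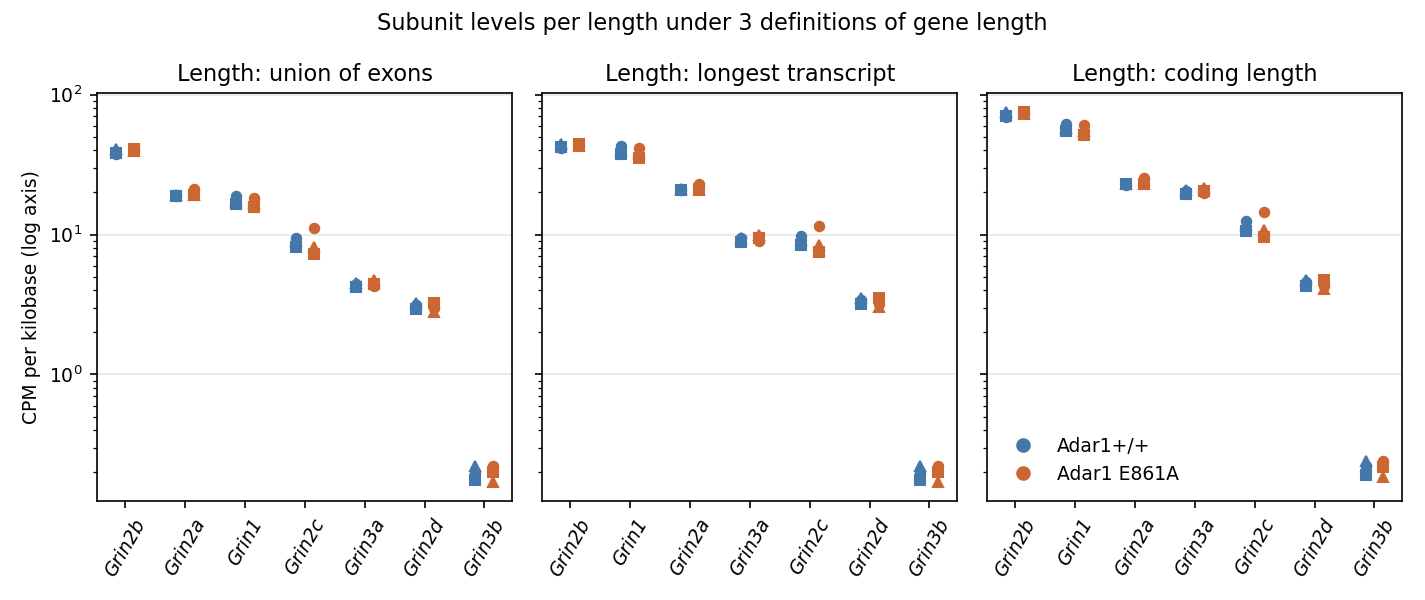
Level of each subunit in CPM per kilobase on a log axis under 3 definitions of gene length (union of exons, longest transcript, coding length), genes ordered by mean in each panel, with 3 *Adar1*+/+ (blue) and 3 *Adar1* E861A (orange) libraries. *Grin2b* is first and *Grin3b* last in each panel, while *Grin1* and *Grin3a* change places with their neighbours.

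As a share of the summed per-length level of the 7 genes, over the union of exons, *Grin2b* took 40.7% to 44.8% in the 6 libraries, *Grin2a* 20.3% to 21.5%, *Grin1* 17.3% to 20.3%, *Grin2c* 8.07% to 11.4%, *Grin3a* 4.39% to 5.16%, *Grin2d* 3.03% to 3.59% and *Grin3b* 0.186% to 0.234%. The mean share of *Grin1* was 18.1 ± 0.761% in *Adar1* E861A and 19.1 ± 1.04% in controls (SD, n = 3), and that of *Grin2b* 43.0 ± 1.99% and 42.3 ± 1.38%. The ranges of both shares overlapped between genotypes. Within same-numbered pairs the *Grin1* share was the lower in *Adar1* E861A in 3 of 3, at 18.66% against 20.32%, 17.25% against 18.52% and 18.44% against 18.51%. No matching of animals behind these pairs is stated. The shares are a description, with no test.

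Ratios between subunits do not depend on the scaling of a library. The ratio of *Grin2a* to *Grin2b*, which rises as synapses mature, was 0.526, 0.472 and 0.484 in *Adar1* E861A and 0.498, 0.494 and 0.470 in controls on the union of exons. The values of the genotypes interleaved, with a log2 difference of 0.018 (exact two-sided permutation test, p = 0.8). The sign of this difference turned when *Adar1* E861A replicate 1 was omitted (-0.028) and when control replicate 3 was (-0.0077). The absolute ratio was 0.491 with this length and 0.322 with coding length, averaged over 6 libraries. The summed *Grin2* level exceeded that of *Grin1* by 4.11-fold on average, but by 1.97-fold with the longest transcript. It was 4.111, 4.499 and 4.132 in *Adar1* E861A and 3.674, 4.135 and 4.135 in controls (exact permutation test, p = 0.6). The ratio of *Grin3a* to *Grin1* was 0.235, 0.285 and 0.280 against 0.237, 0.255 and 0.256 (exact permutation test, p = 0.4). For *Grin2c*, *Grin2d* and *Grin3b* over *Grin1* the exact p was 1.0, 1.0 and 0.9. After Benjamini-Hochberg adjustment over these 6 ratios every p was 1.0. Without *Adar1* E861A replicate 1 the log2 difference, *Adar1* E861A minus control, was 0.12 for summed *Grin2* over *Grin1* and, each over *Grin1*, -0.069 for *Grin2c*, 0.072 for *Grin2d*, 0.18 for *Grin3a* and 0.015 for *Grin3b*, and for *Grin2c* this reversed a difference of 0.047.

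The AMPA receptors, the other main glutamate-gated channels of excitatory synapses, were taken for comparison. The 4 AMPA receptor genes *Gria1* to *Gria4* summed to 223 to 239 CPM per kilobase of exon union, 2.43 to 2.58 times the summed NMDA receptor level of 89.3 to 97.8 in the same library. With coding length the ratio was 2.90 to 3.10. The NMDA receptor sum was 93.1 ± 4.07 CPM per kilobase in *Adar1* E861A and 92.1 ± 2.55 in controls (SD, n = 3), with ranges that overlapped. The AMPA receptor sum was 234.9 ± 4.09 and 226.4 ± 3.13 CPM per kilobase, and its ranges, 230.9 to 239.1 and 223.3 to 229.6, did not overlap, as for 13.8% of single tested genes. Whether the difference between genotypes was itself unequal in the 2 families was not tested.

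Genes of the glutamate synapse that act with NMDA receptors were read from the same fit in 8 lists of 120 genes, of which 118 were tested. Of these, 60 were higher and 58 lower in *Adar1* E861A, and edgeR's quasi-likelihood test called 0 of them, against 0.506% of all tested genes. DESeq2 called 1, and edgeR's likelihood ratio test and the fit with the replicate block called 2 each. At an unadjusted p under 0.05 there were 9, or 7.63%, against 9.01% of all tested genes. Their median log2 fold change was 0.0024, against -0.0010 over all tested genes, and CPM ranges did not overlap for 16.9% of them, against 13.8%. Without *Adar1* E861A replicate 1, 0 of the 118 were called.

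Among 22 scaffold and anchoring genes, which hold the receptors in the postsynaptic density, 14 were higher and 8 lower, none called, with a median log2 fold change of 0.027. *Dlg4*, for the scaffold PSD-95 that binds GluN2 tails, was at 376 ± 27.7 CPM in *Adar1* E861A and 377 ± 4.13 CPM in controls (SD, n = 3). Its log2 fold change was -0.0031 ± 0.051, and -0.032 without *Adar1* E861A replicate 1. *Homer1*, which links metabotropic receptors to the density, was at 441.3, 451.2 and 467.1 CPM in *Adar1* E861A and at 385.9, 409.6 and 426.6 CPM in controls. Its ranges did not overlap and its log2 fold change was 0.16 ± 0.053 (edgeR, adjusted p = 0.385). With the replicate block the adjusted p was 0.0396, while it was 0.245 by DESeq2 and no other setting passed. *Homer3* had the largest absolute log2 fold change of the list, -0.16 ± 0.096 (adjusted p = 0.649).

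Of 26 signalling partners 9 were higher and 17 lower, none called, and the median was -0.012 on the log2 scale. The calcium-dependent kinase genes *Camk2a* and *Camk2b* had log2 fold changes of -0.0082 ± 0.057 and -0.086 ± 0.048 (adjusted p = 0.981 and 0.626). *Nos1*, for the nitric oxide synthase coupled to NMDA receptors, was at 82.7 ± 7.58 CPM in *Adar1* E861A and 91.3 ± 1.33 CPM in controls (SD, n = 3). Its log2 fold change was -0.14 ± 0.059 (edgeR, adjusted p = 0.511). It was -0.074 without *Adar1* E861A replicate 3, which had the lowest value, 73.92 CPM. In the 14 transport and trafficking genes, 9 higher and 5 lower, *Vps35* of the retromer had the largest value, 0.093 ± 0.049 (adjusted p = 0.604).

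The 14 tested genes of co-agonist supply held 3 of the 9 unadjusted p-values under 0.05, with 5 genes higher and 9 lower, none called, and a median log2 fold change of -0.029. *Srr*, for the racemase that makes D-serine, was at 38.1 ± 1.04 CPM in *Adar1* E861A and 35.3 ± 0.769 CPM in controls (SD, n = 3; log2 fold change 0.11 ± 0.050, edgeR adjusted p = 0.553). *Slc6a9*, for the glycine transporter GlyT1, was at 24.0 ± 1.48 and 27.1 ± 1.99 CPM (log2 fold change -0.18 ± 0.064, adjusted p = 0.435). *Slc6a5*, for the neuronal glycine transporter GlyT2 of brainstem and cerebellum, was at 31.35, 25.69 and 28.12 CPM in *Adar1* E861A and at 34.36, 35.27 and 32.46 CPM in controls. It had the largest absolute log2 fold change of all 8 lists, -0.27 ± 0.067, and did not pass the threshold (adjusted p = 0.169). *Slc6a5* did pass by edgeR's likelihood ratio test (adjusted p = 0.0344) and without the low-count filter (0.00692). The fit without that filter took no account of how far *Slc6a5* varied between libraries.

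Of 11 genes of glutamate release and uptake 4 were higher and 7 lower, none called. *Slc1a2*, for the astrocyte transporter that clears most synaptic glutamate, was at 4137, 4261 and 4098 CPM in *Adar1* E861A and at 3488, 3680 and 3722 CPM in controls. Every *Adar1* E861A library was above every control, with a log2 fold change of 0.20 ± 0.057 and an adjusted p of 0.261. The adjusted p was 0.00314 by DESeq2, 0.0341 by the likelihood ratio test, 0.0256 without the low-count filter and 0.0374 with the replicate block. As for *Slc6a5*, the value without the filter took no account of how far *Slc1a2* varied between libraries. The 8 astrocyte markers summed to 1603 to 1720 CPM in *Adar1* E861A and 1598 to 1676 CPM in controls, ranges that overlap. Of these markers 7 were higher and 1 lower in *Adar1* E861A, 0 had an unadjusted p under 0.05 in edgeR and 0 were called, with a median log2 fold change of 0.016. Their part in the *Slc1a2* values was not tested.

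The other glutamate receptors were also uncalled. Of 16 AMPA receptor and auxiliary subunit genes 9 were higher and 7 lower, with a median log2 fold change of 0.0035. *Gria2*, whose Q/R site is shown above, was at 738 ± 25.9 CPM in *Adar1* E861A and 693 ± 18.1 CPM in controls (SD, n = 3). Its log2 fold change was 0.092 ± 0.046 (edgeR, adjusted p = 0.579). *Gria1*, *Gria3* and *Gria4* had 0.012, 0.024 and 0.049, and *Cacng5*, for an auxiliary subunit, -0.11, or -0.048 without *Adar1* E861A replicate 1 (adjusted p from 0.718 to 0.964 over all 6 libraries). Of 8 kainate and delta receptor genes 5 were higher and 3 lower. *Grik2*, for the kainate receptor GluK2, had 0.16 ± 0.051 (adjusted p = 0.339) and *Grik1* 0.027 ± 0.063 (adjusted p = 0.93). Of 7 tested metabotropic receptor genes 5 were higher and 2 lower, with *Grm5* at 0.055 ± 0.044 (adjusted p = 0.748), *Grm7* at 0.12 ± 0.045 (adjusted p = 0.455) and *Grm2* at -0.13 ± 0.084 (adjusted p = 0.688).

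**Figure D5:**
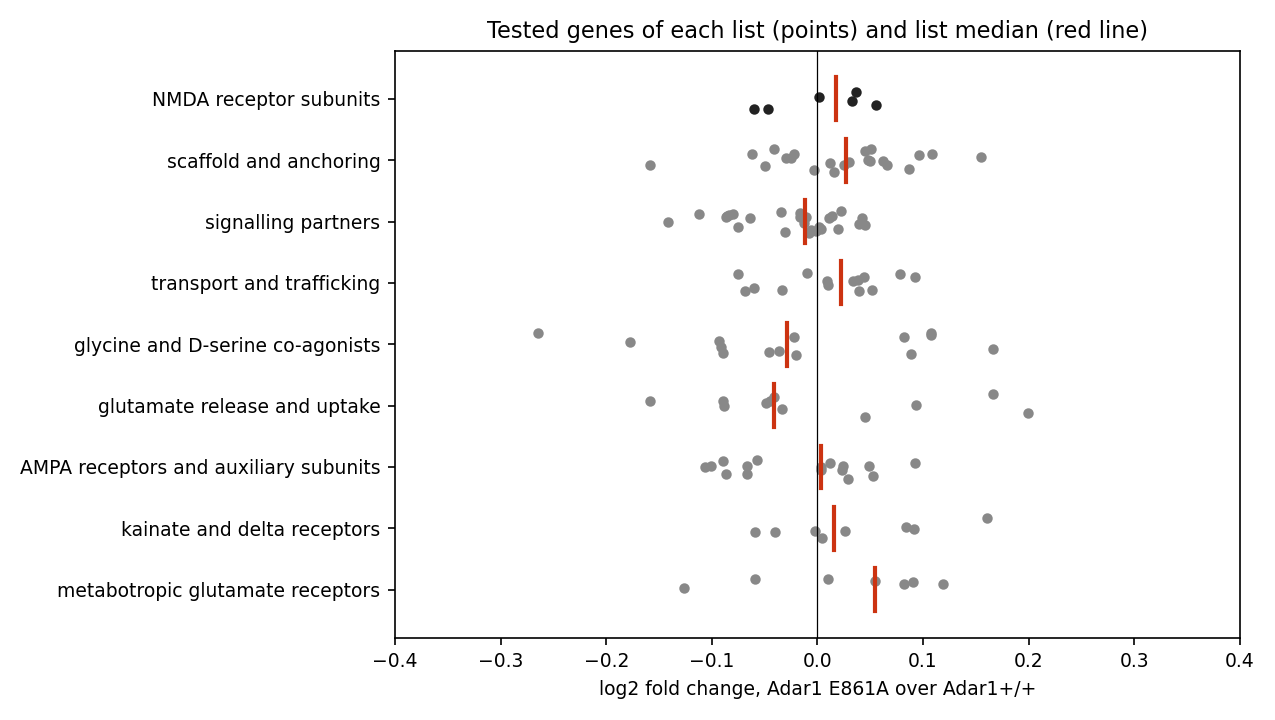
Log2 fold change, *Adar1* E861A over *Adar1*+/+, of every tested gene in the NMDA receptor family (black) and in 8 lists of glutamate synapse genes (grey), with a red line at each list's median; vertical scatter within a list has no meaning. The 6 tested subunits lie between -0.060 and 0.056, and the values of the 8 lists span -0.27 to 0.20.

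The genes whose level followed each subunit most closely over the 6 libraries were also listed, by Pearson's r of log2 CPM among 9668 genes with a mean of at least 10 CPM. For *Grin1* they were *Safb2* (r = 0.997), *Tnrc6c* (0.99) and the sodium-activated potassium channel gene *Kcnt1* (0.989). For *Grin2a* they were *Rpl10a* (0.982), *Usp46* (0.978) and *Xpnpep3* (0.972), and for *Grin2b* *Klhl10* (0.996), *Stk4* (0.9753) and *Ctgf* (0.972). For *Grin2c* they were *Mus81* (0.997), *Zscan22* (0.991) and *Pfkp* (0.989), for *Grin2d* *Faf2* (0.978), *Ccdc6* (0.978) and *Ankrd33b* (0.974), and for *Grin3a* *Fgf12* (0.989), the GABA receptor gene *Gabra5* (0.982) and the activity-regulated factor gene *Mef2a* (0.981). No subunit was among the 3 nearest genes of another. With 6 points from libraries that share their scaling, 49 to 176 genes exceeded an r of 0.9 for each subunit, and these values are a description only.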

How the data were processed

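RNA-seq of whole brain was performed by the authors on ribosome-depleted RNA with a stranded kit (75-base paired-end reads, 3 libraries per genotype). Per the labels and the study's methods, reads were trimmed with Trimmomatic 0.36 and aligned to NCBIM37 (mm9) with STAR 2.5.2a, and the authors deposited raw counts per gene, not normalized and not pooled. The strand setting and annotation of the counting are not given in the sources used here. All 37310 gene identifiers were found in GENCODE vM1. The authors' CPM tables and their table of comparison statistics (fold changes, false discovery rates) were not used. The series' design line names fetal brain, whereas every sample label gives adult brain, which was followed. Depth was 26853488 to 38076753 counts per library.

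Counts were tested in R 4.3.3 with edgeR 4.0.16 (TMM, quasi-likelihood, 13649 genes that reached a CPM of 2 in all 3 libraries of a genotype, Benjamini-Hochberg adjustment, no covariates). A called gene had an adjusted p under 0.05. The standard error was the absolute log2 fold change divided by the square root of F. *Grin3b* was read from fits with other filters; without a filter the prior degrees of freedom came out infinite, and its own spread then did not enter. Ratios and CPM were compared with exact two-sided permutation tests (scipy 1.17.1). CPM in the text is from column totals, except in the correlations, which used TMM-scaled CPM with 0.5 added. Pore-loop codons were located in the longest coding sequence from a conserved motif further along the protein, and identities came from global alignment in Biopython 1.88. The test was checked on simulated counts in which every gene had the same dispersion, which the real counts need not have. The Poisson intervals of *Grin3b* cover counting error only, and the intervals of fold changes come from the edgeR fits. No molecular identifiers were used.

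Members, gene lists and tests were chosen with earlier results of these data known. Besides the 7 members, genes are named where they belong to a chosen set of 14 synaptic genes, or have the largest absolute fold change or the smallest p of a list. Some named genes and sequences are not reported here. Of the 15 marker lists, the forebrain excitatory (2212 to 2515 CPM summed), Purkinje (1490 to 1807), thalamic and midbrain (495 to 583), striatal (606.5 to 677), oligodendrocyte (4465 to 4757), microglial (164 to 180.4) and blood (27.0 to 52.4) sums overlapped between genotypes. Of the tested marker genes 0 were called. The 6 matched pituitary genes failed the filter and were not tested. The symbols *Drd1a*, *Lhb* and *Hbb-b1* had no match.

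Replicate numbers are shared between genotypes in the labels. Deviations from the genotype means correlated with r of 0.221, 0.329 and 0.112 within same-numbered pairs. Between libraries of different number r ran from -0.255 to 0.052. Deviations cancel out within a genotype, so these values depend on each other and cannot establish a pairing. The source of any pairing is not stated. The reported fits and permutation tests are unpaired, after the study's design, and the replicate block was run as an alternative. Alternatives comprised DESeq2 1.42.0, limma-voom (limma 3.58.1), the likelihood ratio test, other scaling factors, other filters, the replicate block, removal of mitochondrial counts, other gene lengths and the omission of each library.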

Additional observations from a re-analysis of the deposited data

How the results depend on the processing

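Over 16 alternative settings, 0 subunits were called and their adjusted p-values spanned 0.409 to 0.999; of 97 subunit values 89 kept their direction and 8 turned. Those that turned without omitting a library were all of *Grin2c*, near 0: -0.018 with limma-voom, -0.0054 with filterByExpr, -0.0093 without a filter, -0.0092 with the replicate block and -0.00033 without mitochondrial counts. Upper-quartile scaling turned *Dlg4* (0.0054) and *Camk2a* (0.00048). The omission of each library moved *Grin2c* between -0.18 and 0.12, *Grin3a* between -0.0079 and 0.074, *Dlg4* between -0.032 and 0.049, *Camk2a* between -0.048 and 0.036, *Gria1* between -0.031 and 0.041 and *Grik1* between -0.0090 and 0.073. For log2 differences of ratios, these limits were -0.028 (without *Adar1* E861A replicate 1) and 0.050 for *Grin2a* to *Grin2b*, -0.069 and 0.12 for *Grin2c* to *Grin1*, -0.11 and 0.072 for *Grin2d* to *Grin1* and -0.029 and 0.14 for *Grin3b* to *Grin1*. The *Grin2c* change was lowest without *Adar1* E861A replicate 1 and highest without *Adar1* E861A replicate 2. The mean *Grin2a* to *Grin2b* ratio was 0.322 with coding length and 0.318 without length (main 0.491), and that of summed *Grin2* to *Grin1* was 1.97 with the longest transcript, 1.98 with coding length and 2.92 without length (main 4.11).

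Of all tested genes 69 were called, against 139 by the likelihood ratio test, 110 with filterByExpr, 376 without a filter, 158 with the replicate block and 42 to 113 with a library omitted. Of the synaptic list genes 0 were called, against 1 by DESeq2 (*Slc1a2*), 2 by the likelihood ratio test and 2 without a filter (*Slc1a2* and *Slc6a5* in both), and 2 with the replicate block (*Homer1* and *Slc1a2*). No further call among the named genes changed under the replicate block. The cause of these differences was not tested. In the fit without a filter the prior degrees of freedom were infinite, against 9.72 in the main fit. Its p-values, those of *Slc1a2* and *Slc6a5* included, therefore took no account of how far each single gene varied between libraries. Depth limited *Grin3b*, at 15 to 26 counts.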
